A study of Mus musculus with 9 samples.

Results

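The expression of 8 genes in use as markers of simple epithelia or of the cells covering the ovary was examined in juvenile mouse ovaries from postnatal day (PD) 14 to PD16. The genes were the keratins Krt7, Krt8, Krt18 and Krt19, the uroplakins Upk3b and Upk1b, the mesothelin gene Msln and the receptor gene Lgr5. They are 8 of the 52025 genes listed for each library, and each symbol matched a single gene. The genes were chosen by name, with earlier results on their FPKM from the same 9 libraries known. Their levels and their changes between days are therefore a description, and the adjusted p-values below are not independent evidence for any direction.

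Keratins build the intermediate filaments of epithelial cells. A filament needs a type II keratin, such as Krt7 or Krt8, paired with a type I keratin, such as Krt18 or Krt19, and Krt8 with Krt18 is the usual pair of simple epithelia. The ovary is covered by a single layer of mesothelium-like cells, the ovarian surface epithelium, for which keratins, uroplakins, mesothelin and Lgr5 are in common use as markers.

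The study compared PD14, PD15 and PD16, the days around the first formation of the follicular antrum, to follow the ovarian transcriptome through that event. Kunming mice were used, and the 3 groups differed only in age, with no treatment or allele named in the labels and 3 libraries for each day. The labels give ovary as the tissue and granulosa cells as the source, whereas the methods describe the collection of ovaries. Markers of other ovarian cells were present in every library, with Zp3 of the oocyte at an FPKM of 263 to 416, Cyp17a1 of theca cells at 19.9 to 46.5, Col1a1 of stroma at 77.3 to 111 and Pecam1 of endothelium at 10.3 to 12.7, beside Inha of granulosa cells at 1780 to 2629. FPKM counts the fragments of a gene per kilobase of its exons, scaled to the depth of the library, so levels of different genes can be compared per length. In ovaries of mixed cells, fewer cells of a type and less RNA per cell cannot be told apart.

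Whole fragment numbers were recovered from the FPKM, as the values of a gene are multiples of the value of a single fragment. By this measure the depth per library was 20.4 to 28.7 M fragments (median 24.2 M). For the 8 genes the exon length was set so that every value is a whole number of fragments. A Krt8 value rested on 677 to 1044 fragments, a Upk3b value on 611 to 1188, a Krt19 value on 314 to 513 and a Krt18 value on 218 to 371. Values of the other genes rested on fewer fragments, with 82 to 195 for Msln, 77 to 171 for Krt7, 46 to 149 for Lgr5 and 32 to 67 for Upk1b. Intervals drawn from these numbers are exact Poisson intervals at 95% and cover counting error only.

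Over the 9 libraries, Krt8 was the most abundant of the genes, with a mean FPKM of 19.8 ± 3.23 (SD, n = 9), and ranked 3286 of 52025 genes. Upk3b followed at 10.2 ± 1.86, Krt19 at 9.45 ± 1.47 and Krt18 at 8.56 ± 1.35, and these 3 neighbours in the order differed by less than the spread of their libraries. Their order was not the same on each day, with Krt19 and Krt18 above Upk3b in the PD14 means and below it in those of PD15 and PD16. Msln was lower at 2.73 ± 0.693, and its lowest library lay above the highest library of Upk1b, which averaged 1.17 ± 0.302. Krt7 at 0.760 ± 0.172 and Lgr5 at 0.363 ± 0.128 were the lowest, and the libraries of Krt7 overlapped with those of both Upk1b and Lgr5. Krt7 and Lgr5 stayed under a mean FPKM of 1 on all 3 days, so only the other 6 genes passed the filter for testing.

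**Figure D1:**
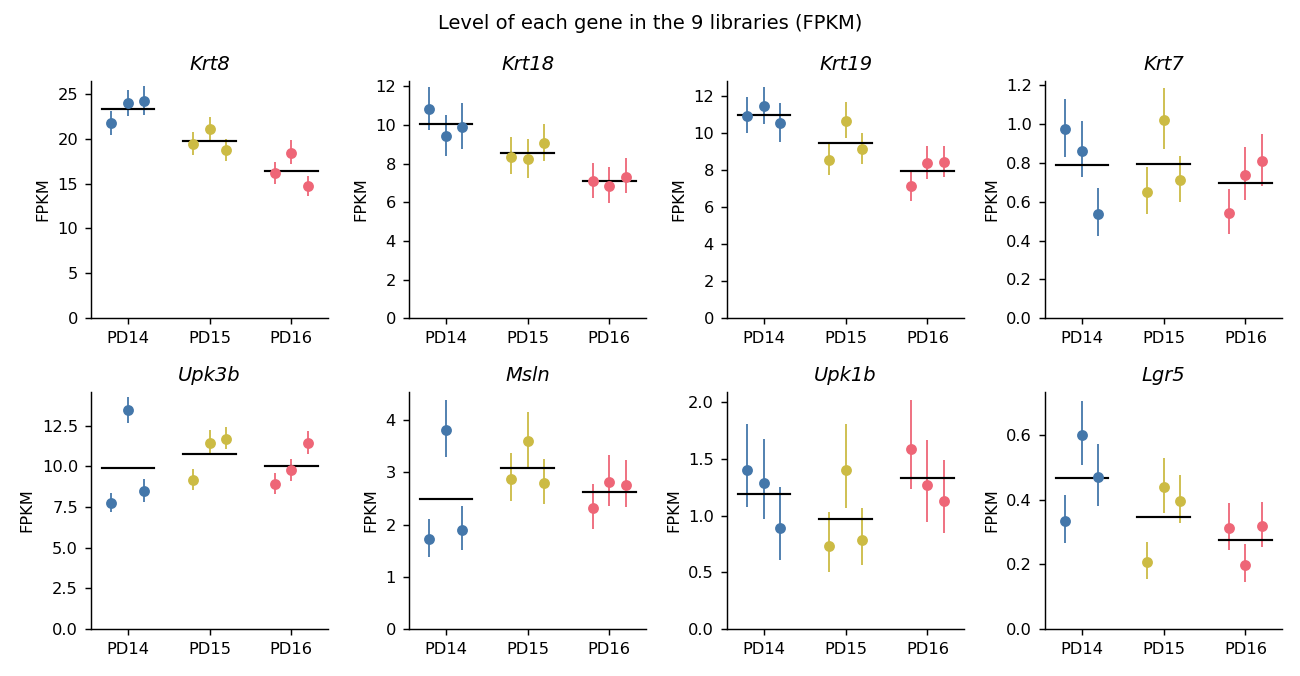
FPKM of each of the 8 genes in the 3 libraries of PD14, PD15 and PD16, with the y axis of each panel starting at 0. Points are libraries, vertical lines are 95% Poisson intervals for counting error and horizontal lines are the means of the days. The points of Krt8 and Krt18 step down from day to day without overlap, and 1 library of PD14 stands high for Upk3b and Msln.

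Between PD14 and PD16, the keratins Krt8, Krt18 and Krt19 fell to 70.6%, 70.6% and 72.7% of their PD14 mean. The uroplakins and mesothelin did not pass the test in any comparison. Each change was taken from limma on log2(FPKM + 1) over 15495 genes with Benjamini-Hochberg adjustment. In PD16 against PD14, 3 of the 6 tested genes were called lower and 0 higher, with 3 at an unadjusted p under 0.05. Over all genes tested, 1.89% were called lower and 2.36% higher in that comparison. In PD15 against PD14 and in PD16 against PD15, limma called 0 of the 6 genes, with 3 at an unadjusted p under 0.05 in each comparison. The share of all genes called there in either direction was 0.678% and 0.729%. An unadjusted p under 0.05 was reached by 14.7%, 22.8% and 14.1% of all genes tested in PD15 against PD14, PD16 against PD14 and PD16 against PD15, the background for every such count below. The comparisons share libraries, so they are not independent of each other.

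The type II keratin Krt8 (ENSMUSG00000049382) is encoded on the minus strand at chr15:101996698-102004482 of GRCm38, in the annotation of GENCODE M21. At PD14 its FPKM was 21.7, 23.9 and 24.2 in replicates 1, 2 and 3. At PD15 it was 19.4, 21.0 and 18.7, and at PD16 it was 16.1, 18.5 and 14.7. No library of a later day reached the lowest library of an earlier day. The day means were 23.3 ± 1.35, 19.7 ± 1.19 and 16.4 ± 1.87 (SD, n = 3). The log2 change was -0.48 in PD16 against PD14 (SE 0.084), with an adjusted p of 0.0222 by limma. The step of -0.23 in PD15 against PD14 and that of -0.25 in PD16 against PD15 had adjusted p-values of 0.253 and 0.207 by limma. The call at PD16 was lost when PD14 replicate 2, PD14 replicate 3 or PD16 replicate 1 was left out, with adjusted p-values by limma of 0.0503, 0.0825 and 0.0732. It was also lost in the fit without a filter (adjusted p = 0.0571, limma). Of the 50-base words of the Krt8 transcript, 26.9% also occur in the pseudogene Krt8-ps, whose own FPKM was 2.16% to 6.20% of that of Krt8. The start of Krt8 also overlaps with the lincRNA gene Gm36026 on the opposite strand, and reads of the overlap cannot be told apart where the counting used no strand.

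The type I keratin Krt18 (ENSMUSG00000023043), which pairs with Krt8, lies on the plus strand at chr15:102028180-102032027. Its FPKM was 10.8, 9.40 and 9.89 at PD14, 8.36, 8.22 and 9.05 at PD15 and 7.08, 6.86 and 7.33 at PD16. As for Krt8, the libraries of the 3 days did not overlap. The mean went from 10.035 ± 0.717 to 8.54 ± 0.442 and 7.09 ± 0.235 (SD, n = 3). The log2 change in PD16 against PD14 was -0.45 (SE 0.064, adjusted p = 0.0121, limma). The steps of -0.21 to PD15 and of -0.24 from PD15 to PD16 had adjusted p-values of 0.179 and 0.135 by limma. The call held in 8 of 9 fits that left out a library and was lost without PD16 replicate 1, where limma gave an adjusted p of 0.0510. The spread of the PD16 libraries, with a coefficient of variation of 3.31%, was under the 6.49% that counting alone gives at this depth.

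The type I keratin Krt19 (ENSMUSG00000020911), the smallest keratin, is encoded at chr11:100140810-100148665 on the minus strand, away from Krt8 and Krt18. Its FPKM was 10.9, 11.4 and 10.5 at PD14, 8.53, 10.6 and 9.12 at PD15 and 7.11, 8.36 and 8.41 at PD16. PD15 replicate 2 overlapped with PD14, and all PD16 libraries lay below those of both earlier days. The mean went from 11.0 ± 0.472 to 9.43 ± 1.09 and 7.96 ± 0.740 (SD, n = 3). The log2 change in PD16 against PD14 was -0.42 (SE 0.088, adjusted p = 0.0335, limma), beside -0.20 in PD15 against PD14 (adjusted p = 0.330) and -0.22 in PD16 against PD15 (adjusted p = 0.298). This was the least stable of the 3 calls. It was lost without any 1 of the 6 libraries of PD14 and PD16, with adjusted p-values by limma of 0.0529 to 0.106. It was also lost in the fit without a filter (adjusted p = 0.0834, limma). The call was lost as well with FPKM rescaled to TPM, which has the same sum in every library. There limma gave -0.47 and an adjusted p of 0.0688. The transcripts of Krt19 share no 50-base word with another gene.

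The type II keratin Krt7 (ENSMUSG00000023039), a partner of Krt19 in ducts and mesothelium, lies on the plus strand at chr15:101411043-101430313, and its end is 566384 bases from Krt8. Its FPKM was 0.972, 0.862 and 0.536 at PD14, 0.651, 1.02 and 0.710 at PD15 and 0.541, 0.737 and 0.808 at PD16. The libraries of the 3 days overlapped, and replicates of a day differed by up to 1.81 times. The day means were 0.790 ± 0.227, 0.793 ± 0.197 and 0.695 ± 0.138 (SD, n = 3). In the fit over all genes above 0 in any library, the log2 change was 0.01 in PD15 against PD14 and -0.07 in PD16 against PD14, each with an SE of 0.13. With 0.1 or 0.01 added to the FPKM in place of 1, the change in PD16 against PD14 was -0.14 or -0.16 (adjusted p = 0.87 and 0.86, limma). Krt7 overlaps with the antisense gene Gm671, with the same limit as for Krt8.

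The proportions between the keratins were close on all 3 days. The FPKM of the type II keratins Krt7 and Krt8 together, divided by that of the type I keratins Krt18 and Krt19, was 1.15 ± 0.0907 at PD14, 1.14 ± 0.0639 at PD15 and 1.14 ± 0.140 at PD16. The ratio of Krt8 to Krt18 was 2.33 ± 0.286, 2.32 ± 0.245 and 2.33 ± 0.341 on these days (SD, n = 3). These day means differed by less than the spread of the libraries, which for Krt8 over Krt18 ran from 2.01 to 2.69. Together, the 4 keratins had a summed FPKM that went from 45.1 ± 0.618 to 38.5 ± 2.13 and 32.2 ± 1.93. The libraries of the 3 days did not overlap in this sum either, with 44.4 to 45.7 at PD14, 37.0 to 40.9 at PD15 and 30.9 to 34.4 at PD16. No p and no background is given for this sum, since its genes were chosen with their values known.

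Krt8 and Krt18, the genes among the 8 whose libraries did not overlap between any 2 days, are neighbours in the genome. How many of all genes tested were likewise without overlap between any 2 days was not counted. The start sites of Krt8 and Krt18 lie 23697 bases apart and face away from each other, and 0 annotated genes lie wholly between them. For this reason the sequences before their starts are shown, together with that of Upk3b as an abundant gene whose level did not pass the test. The sequences are from RefSeq on GRCm38.p6, and the start windows of 4 of the 8 genes (Krt7, Krt8, Krt18 and Upk3b) were used here. Windows of 250 bases before the RefSeq start were searched on both strands for the TATA box TATAAA, the GC box GGGCGG, the CCAAT box CCAAT, the AP-1 motif TGANTCA and the E box CANNTG. Each sequence runs 5′ to 3′ on the strand of its gene from 250 bases before the start to the first base that GENCODE M21 annotates as an exon, and capitals mark motif matches, which here are all E boxes.
Krt8, chr15:102004483-102004592, minus strand: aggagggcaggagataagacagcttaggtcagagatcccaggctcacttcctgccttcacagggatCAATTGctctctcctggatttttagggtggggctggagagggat
Krt18, chr15:102027966-102028179, plus strand: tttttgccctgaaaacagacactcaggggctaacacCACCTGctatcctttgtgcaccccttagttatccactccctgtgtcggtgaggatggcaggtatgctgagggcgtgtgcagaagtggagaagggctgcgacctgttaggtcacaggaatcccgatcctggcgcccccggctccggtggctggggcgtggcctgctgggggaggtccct
Upk3b, chr5:136038246-136038495, plus strand: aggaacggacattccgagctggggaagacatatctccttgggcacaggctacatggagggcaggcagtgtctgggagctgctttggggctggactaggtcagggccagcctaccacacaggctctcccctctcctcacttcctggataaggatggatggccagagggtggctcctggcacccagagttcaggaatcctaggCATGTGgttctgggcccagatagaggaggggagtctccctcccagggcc

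The E box was found in all 4 windows, and it occurs in 66.2% of the 32817 windows of the same length in the genome. Its matches started 184 and 111 bases before the start of Krt8, 214 before that of Krt18, 44 before that of Krt7 and 49 before that of Upk3b. The GC box occurred 4 times before Krt7, at 141, 128, 56 and 24 bases, and in none of the other 3 windows, against 32.7% of all windows. The TATA box, the CCAAT box and the AP-1 motif, present in 12.4%, 33.8% and 6.75% of all windows, were in none of the 4. The GC content of the windows was 58% for Krt8, 60.4% for Krt18, 60.8% for Upk3b and 66% for Krt7. The window of Krt7, chr15:101412153-101412402, lies inside the gene as placed by GENCODE M21. Of its 250 bases 205 are in exons of that annotation, against 140 for Krt8, 36 for Krt18 and 0 for Upk3b. All matches of Krt7 and the Krt8 match at 111 bases lie past the first exon base of their window. These matches describe the letters in the windows and were not set against any measurement of binding.

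Upk3b (ENSMUSG00000042985, chr5:136038496-136046487, plus strand) encodes a membrane protein of urothelial plaques that is also made in mesothelium. Its FPKM was 7.76, 13.4 and 8.50 at PD14, 9.18, 11.5 and 11.7 at PD15 and 8.92, 9.77 and 11.4 at PD16. PD14 replicate 2 was the highest of the 9 libraries and PD14 replicate 1 the lowest, so PD14 spanned the other days. The means were 9.90 ± 3.09, 10.8 ± 1.40 and 10.04 ± 1.28 (SD, n = 3). The log2 change was 0.14 in PD15 against PD14 (SE 0.18, adjusted p = 0.759), 0.05 in PD16 against PD14 (adjusted p = 0.899) and -0.09 in PD16 against PD15 (adjusted p = 0.874, all by limma). The coefficient of variation at PD14 was 31.2%, against 3.62% from counting alone.

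Msln (ENSMUSG00000063011, chr17:25748613-25754378, minus strand) encodes mesothelin, a protein anchored on the surface of mesothelial cells. Its FPKM was 1.72, 3.82 and 1.90 at PD14, 2.88, 3.60 and 2.80 at PD15 and 2.32, 2.81 and 2.75 at PD16. PD14 replicate 2 was again the highest library and PD14 replicate 1 the lowest. The means were 2.48 ± 1.16, 3.09 ± 0.440 and 2.63 ± 0.267 (SD, n = 3), with log2 changes of 0.28 in PD15 against PD14 and 0.11 in PD16 against PD14 (SE 0.19, adjusted p = 0.544 and 0.783 by limma). Without PD14 replicate 1 or PD14 replicate 2, the change to PD15 was 0.12 or 0.54 for Msln and 0.0022 or 0.36 for Upk3b, and neither gene was called. The proportion of Msln to Upk3b ran from 0.221 to 0.314 in the 9 libraries, while the PD14 libraries differed by up to 1.73 times in Upk3b and 2.22 times in Msln. This proportion is a description, since the 2 values come from the same library each time.

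Upk1b (ENSMUSG00000049436, chr16:38773184-38800328, minus strand), a tetraspanin that partners with Upk3b in plaques, was close to the limit for testing. Its FPKM was 1.41, 1.29 and 0.888 at PD14, 0.733, 1.40 and 0.787 at PD15 and 1.59, 1.27 and 1.13 at PD16. The libraries of all days overlapped, and the means of 1.19 ± 0.272, 0.974 ± 0.371 and 1.33 ± 0.234 had no common order with Upk3b or Msln. The largest log2 change was 0.25 in PD16 against PD15 (SE 0.16, adjusted p = 0.518, limma). With a library left out it ran from 0.17 to 0.40 and was never called. The pseudocount of 1 compresses changes at this level, and this change was 0.45 with a pseudocount of 0.1 and 0.50 with 0.01, with adjusted p-values of 0.506 and 0.5002 by limma. The other uroplakins were lower still, with Upk1a at a mean of 0.642, 0.677 and 0.732 on the 3 days, Upk3a at 0.638, 0.568 and 0.469 and Upk2 listed at 0 in all 9 libraries.

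**Figure D2:**
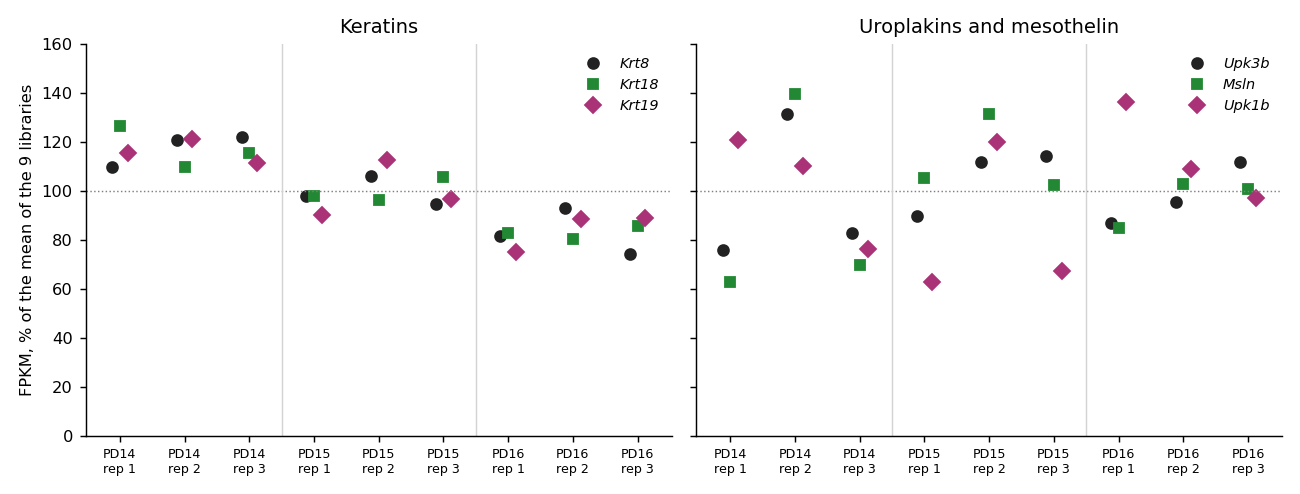
FPKM of the keratins Krt8, Krt18 and Krt19 (left) and of Upk3b, Msln and Upk1b (right) in each library, as a percentage of the mean of the gene over the 9 libraries. Points are single libraries. The keratins lie above 100% in all PD14 libraries and below it in all PD16 libraries, whereas Upk3b and Msln have both their highest and their lowest library at PD14.

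The keratins were set against the surface markers within each library. Upk3b, Upk1b and Msln together had a summed FPKM of 13.6 ± 4.31 at PD14, 14.9 ± 1.88 at PD15 and 14.0 ± 1.25 at PD16 (SD, n = 3). The keratin sum divided by this sum was 3.51 ± 0.912, 2.61 ± 0.242 and 2.31 ± 0.235. PD14 replicate 1 and replicate 3 stood at 4.08 and 3.996, above all other libraries, while PD14 replicate 2 stood at 2.46 and within the range of PD15 and PD16. The difference between days in this ratio therefore did not hold in every library, and it was not tested. All 8 genes summed to 59.1 ± 4.97, 53.7 ± 3.94 and 46.5 ± 2.26.

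Lgr5 (ENSMUSG00000020140, chr10:115450311-115587780, minus strand) encodes a receptor for R-spondins that marks stem cells in several epithelia. Its FPKM was 0.334, 0.601 and 0.469 at PD14, 0.207, 0.438 and 0.397 at PD15 and 0.311, 0.197 and 0.318 at PD16. All PD16 libraries lay below the lowest PD14 library, but the gap was only that between 0.318 and 0.334, and PD15 overlapped with both days. The means were 0.468 ± 0.133, 0.347 ± 0.123 and 0.275 ± 0.0676 (SD, n = 3). In the fit over all genes above 0 in any library, the log2 change in PD16 against PD14 was -0.20 (SE 0.092, adjusted p = 0.385, limma), on the log2(FPKM + 1) scale, which understates the change of a gene at this level. It was -0.59 with a pseudocount of 0.1 and -0.73 with 0.01 (adjusted p = 0.471 and 0.476, limma). Lgr5 overlaps with A930009A15Rik on the opposite strand.

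Over the 6 tested genes, the median log2 change was -0.18 in PD15 against PD14, -0.19 in PD16 against PD14 and -0.19 in PD16 against PD15, beside 0.01 over all genes tested in each comparison. Of the 6 changes, 4, 3 and 5 were below 0 in these comparisons and 2, 3 and 1 above. These medians therefore do not describe a shift of all 6 genes. The libraries did not overlap, and were lower on the later day, for 2, 3 and 3 of the 6 genes in these comparisons, and for 0 in the higher direction. Over all genes tested this was so for 10.2%, 13.5% and 9.73% in the lower direction, and for 15.0% in the higher direction in PD16 against PD14. The members behind these counts were the same keratins that were called at PD16, namely Krt8 and Krt18 in all comparisons and Krt19 in those with PD16.

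**Figure D3:**
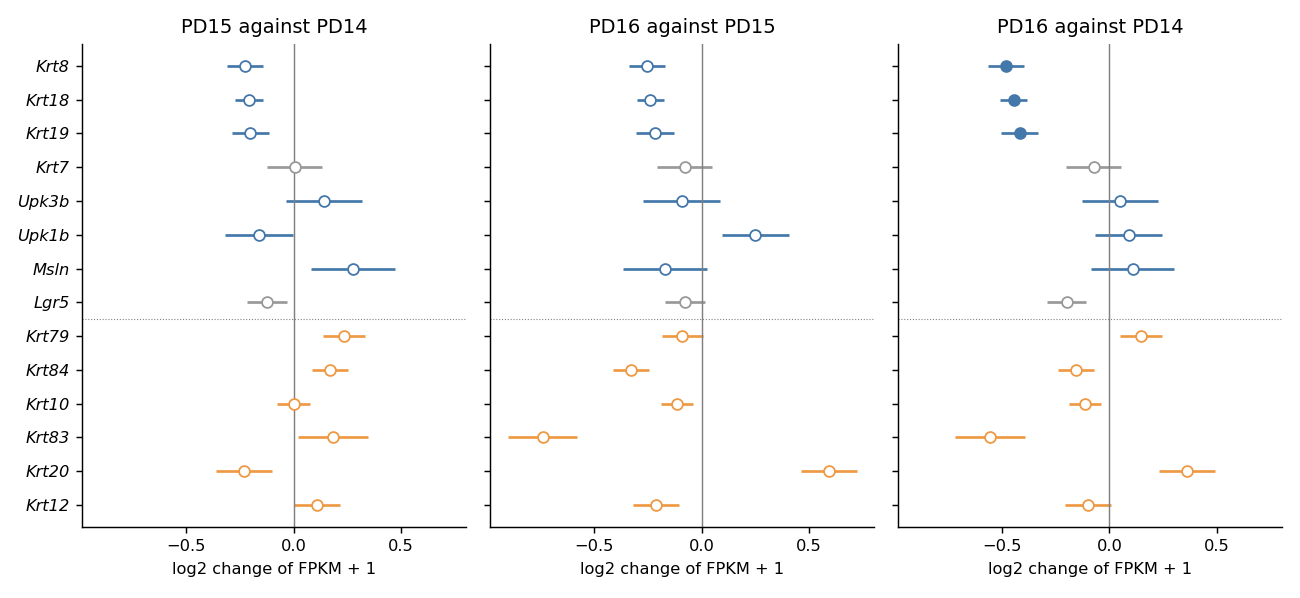
Change of log2(FPKM + 1) in the 3 comparisons of days for the 8 genes and, under the dotted line, for the 6 other keratins that were tested. Points are fitted changes, bars are standard errors, filled points have an adjusted p under 0.05, and grey points are genes under the filter with values from the fit over all genes above 0. Only Krt8, Krt18 and Krt19 in PD16 against PD14 are filled.

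No keratin outside the set was called. The tables hold 54 protein-coding keratins, of which 50 are not among the 8 genes, and 8 of these were at 0 in all libraries. The 6 that were tested were Krt79, Krt84, Krt10, Krt83, Krt20 and Krt12, most of them known from hair, skin or cornea, and limma called 0 of them in any comparison, with 1, 2 and 3 at an unadjusted p under 0.05 in PD15 against PD14, PD16 against PD14 and PD16 against PD15. Krt79 was the most abundant, with a mean of 6.61 ± 0.688 at PD14, 7.97 ± 1.03 at PD15 and 7.40 ± 0.420 at PD16. Krt84 averaged 5.70, 6.55 and 5.04 and Krt10, a keratin of stratified epidermis, 3.60, 3.60 and 3.25. In PD16 against PD14 the libraries did not overlap for 1 of the 6 in the lower direction, Krt83, and for 1 in the higher, Krt20, against 13.5% and 15.0% of all genes tested. In PD16 against PD15 they did not overlap for 3 in the lower direction, Krt83, Krt84 and Krt12, and for Krt20 in the higher, against 9.73% lower and 1526 of 15495 genes higher. Krt83 averaged 3.19, 3.67 and 1.81 with log2 changes of -0.56 in PD16 against PD14 and -0.74 in PD16 against PD15 (adjusted p = 0.0851 and 0.0751, limma). Krt20, a keratin of gut epithelium and urothelium, averaged 1.70, 1.31 and 2.49 with changes of 0.36 and 0.59 in these comparisons (adjusted p = 0.140 and 0.0758, limma). Krt12 averaged 1.23, 1.40 and 1.07. The 4 keratins of the set made up 63.3% ± 2.27 of the summed FPKM of all 54 at PD14, 57.9% ± 0.898 at PD15 and 56.8% ± 1.16 at PD16.

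A list of 19 further genes of mesothelium and surface epithelium was followed beside the 8 genes, and 16 of them were tested. In PD16 against PD14, 2 were called lower and 1 higher, against 1.89% and 2.36% of all genes tested. Of the 16 changes 13 were below 0, against 7409 of 15495 over all genes tested, and the median was -0.13. The PD16 libraries of 5 of the 16 genes lay wholly below those of PD14 and those of 1 wholly above, against 13.5% and 15.0% of all genes tested. Rspo1, which encodes a Wnt enhancer and ligand of Lgr5, fell from 6.90 ± 0.498 to 4.27 ± 0.338 by PD15 and was 4.02 ± 0.206 on PD16. Its log2 changes against PD14 were -0.58 and -0.65, with adjusted p-values by limma of 0.0158 and 0.00583. The call at PD16 held with any library left out, and that at PD15 was lost without PD14 replicate 2 or 3 or PD15 replicate 1 (adjusted p of 0.0504 to 0.0893, limma). The galectin gene Lgals7 averaged 18.2 ± 2.12 and 17.9 ± 1.30 at PD14 and PD15 and fell to 12.6 ± 0.797 at PD16 (log2 change -0.49, adjusted p = 0.0239, limma), a call lost without PD14 replicate 2 or 3 or PD16 replicate 1 or 2 (adjusted p of 0.0512 to 0.0832). Lgals7 was called in 13 of the 18 alternatives run, and not in the fit without a filter (adjusted p = 0.0641, limma). The matrix gene Efemp1 rose from 3.10 ± 0.746 to 6.14 ± 1.14 (log2 change 0.80, adjusted p = 0.0462, limma), a call lost without PD14 replicate 1 or 3, PD15 replicate 3 or any PD16 library (adjusted p of 0.0585 to 0.147). Over all alternatives run, Efemp1 was called in 5 of 18, and not with a replicate block (adjusted p = 0.0846, limma).

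The most abundant genes of that list did not pass the test. The retinaldehyde dehydrogenase gene Aldh1a1 averaged 199 ± 5.17, 153 ± 27.4 and 130 ± 34.4, with a log2 change of -0.63 in PD16 against PD14 (adjusted p = 0.0743, limma). Wt1, a transcription factor of mesothelium and granulosa cells, averaged 26.9, 29.7 and 23.6, and Aldh1a2 24.7, 16.7 and 20.1. For both Aldh1a1 and Aldh1a2, the PD15 and the PD16 libraries lay wholly below those of PD14. The granulosa and surface cells share several of these genes, so their levels are not specific to the surface. Of the narrower mesothelial markers, Bnc1 averaged 5.30 ± 0.407, 5.66 ± 0.121 and 5.28 ± 0.419 and Lrrn4 1.03 ± 0.145, 0.952 ± 0.0459 and 0.921 ± 0.194. The surface mucin gene Muc16 was low, at 0.160 to 0.442 in the 9 libraries. The means of Bnc1, Upk3b and Msln differed by less than the SD of their most variable day, which was PD14 for Upk3b and Msln. Between PD15 and PD16 the means of Msln, 3.09 ± 0.440 and 2.63 ± 0.267, differed by more than either SD. Nkain4, another mesothelial marker and named after its values were seen, averaged 6.04 ± 1.06, 4.72 ± 0.940 and 4.02 ± 0.640. Its PD16 libraries lay below those of PD14, with a log2 change of -0.48 that was not called (adjusted p = 0.101, limma).

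No general epithelial gene was called in PD16 against PD14. Of 25 listed, 16 were tested, and limma called 0 in that comparison, with 6 at an unadjusted p under 0.05. Of the 16 changes 15 were below 0, with a median of -0.17, against 7409 of 15495 below 0 over all genes tested. The PD16 libraries of 6 of the 16 genes lay wholly below those of PD14, against 13.5% of all genes tested. Among the most abundant were the splicing regulator Esrp1, at 12.5, 13.6 and 11.6, and the protease inhibitor gene Spint2, at 14.1, 11.4 and 11.9.

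Among desmosome and keratin linker genes, read per gene and not per isoform, Perp and Dst were called higher in PD16 against PD14. Of 17 listed, 10 were tested, 2 were called higher and 0 lower in PD16 against PD14, against 2.36% and 1.89% of all genes tested, and the median was -0.00. Perp, which encodes a membrane protein of desmosomes and a p53 target, rose from 5.11 ± 0.507 to 11.2 ± 2.73 by PD15 and was 12.3 ± 2.22 on PD16. Its log2 changes against PD14 were 0.98 and 1.11, with adjusted p-values by limma of 0.0456 and 0.0148. The call at PD15 held in 2 of 9 fits that left out a library, those without PD15 replicate 2 or PD16 replicate 2 (adjusted p of 0.0571 to 0.158 in the others, limma). That at PD16 was lost without PD14 replicate 3 or PD16 replicate 1 (adjusted p of 0.0595 and 0.0597, limma). Of the 18 alternatives run, Perp was called in 8 at PD15 and in 15 at PD16. Without a filter both calls were lost (adjusted p of 0.139 and 0.0508, limma). Dst, a plakin that links filaments to hemidesmosomes, rose from 8.54 ± 1.18 to 13.3 ± 1.78 (log2 change 0.59, adjusted p = 0.0236, limma), a call lost without PD14 replicate 1 or 3 or PD16 replicate 1 (adjusted p of 0.0663 to 0.0825). Over all alternatives run, Dst was called in 11 of 18, and not with a replicate block (adjusted p = 0.0633, limma). The keratin-binding plakin gene Dsp averaged 10.8 ± 2.13, 11.2 ± 1.84 and 13.7 ± 0.152 and Pkp4 12.4, 12.1 and 12.9, and neither passed the test. The PD16 libraries did not overlap with those of PD14 for 3 of the 10 genes in the higher direction and for 3 in the lower, against 15.0% and 13.5% of all genes tested. The latter, named after their values were seen and not called, were Jup, at 10.09 ± 0.777 and 8.46 ± 0.289 on these days, Plec, at 9.22 ± 0.730 and 7.86 ± 0.396, and Dsg2, at 2.71 ± 0.202 and 2.06 ± 0.359.

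Oviduct tissue that could remain on a dissected ovary also expresses keratins. Of 20 oviduct genes 6 were tested, and limma called 0 in any comparison, with 2, 2 and 0 at an unadjusted p under 0.05 in the order of the comparisons above. Of the defining markers, 3 of 4 stayed under an FPKM of 1 in every library, with Ovgp1, the oviductal glycoprotein, at 0.153 to 0.779, the transcription factor Pax8 at 0.0139 to 0.246, the ciliary factor Foxj1 at 0.128 to 0.552, while Wfdc2 ran from 0.921 to 4.35. This list summed to an FPKM that ran from 26.5 to 31.7 at PD14, 26.8 to 29.9 at PD15 and 25.4 to 28.6 at PD16, and 0 of the 20 genes were at 0 in all libraries. Its most abundant gene was Tppp3, with means of 8.61, 12.2 and 10.6, followed by Rsph1 and Sox17. The defining marker Pax8 averaged 0.195, 0.0504 and 0.0581, Foxj1 0.405, 0.204 and 0.197 and the mucin gene Muc1, named after its values were seen, 0.502, 0.189 and 0.234. For each of these 3 genes the PD15 and the PD16 libraries lay wholly below those of PD14, at levels under the filter for testing. Over all 20 genes, 4 were wholly lower and 1 higher in PD15 against PD14, and 5 were lower and 0 higher in PD16 against PD14. Of the 33957 genes above 0 in any library, 7% were wholly lower and 6.88% higher in the first comparison, and 8.78% in each direction in the second. The part of these oviduct genes in the levels of the keratins was not tested.

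The most abundant genes among the partners of Lgr5 had a higher FPKM than the receptor itself. Of 15 genes for related receptors, R-spondins and Wnt targets, 10 were tested, and limma called 0 in any comparison, with 2, 2 and 1 at an unadjusted p under 0.05. In PD16 against PD14, 7 of the 10 changes were below 0, against 7409 of 15495 over all genes tested. The libraries did not overlap for 3 of the 10 in the lower direction and for 0 in the higher, against 13.5% and 15.0% of all genes tested. The R-spondin gene Rspo2 was the most abundant at 22.1 ± 1.26, 24.6 ± 0.541 and 21.9 ± 1.09, followed by the Wnt effector Tcf7 at 20.9, 20.0 and 19.5 and the Wnt target Nkd1 at 14.9, 14.4 and 13.0. The related receptor Lgr4, chosen for mention after its values were seen, averaged 11.7, 10.6 and 11.05.

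**Figure D4:**
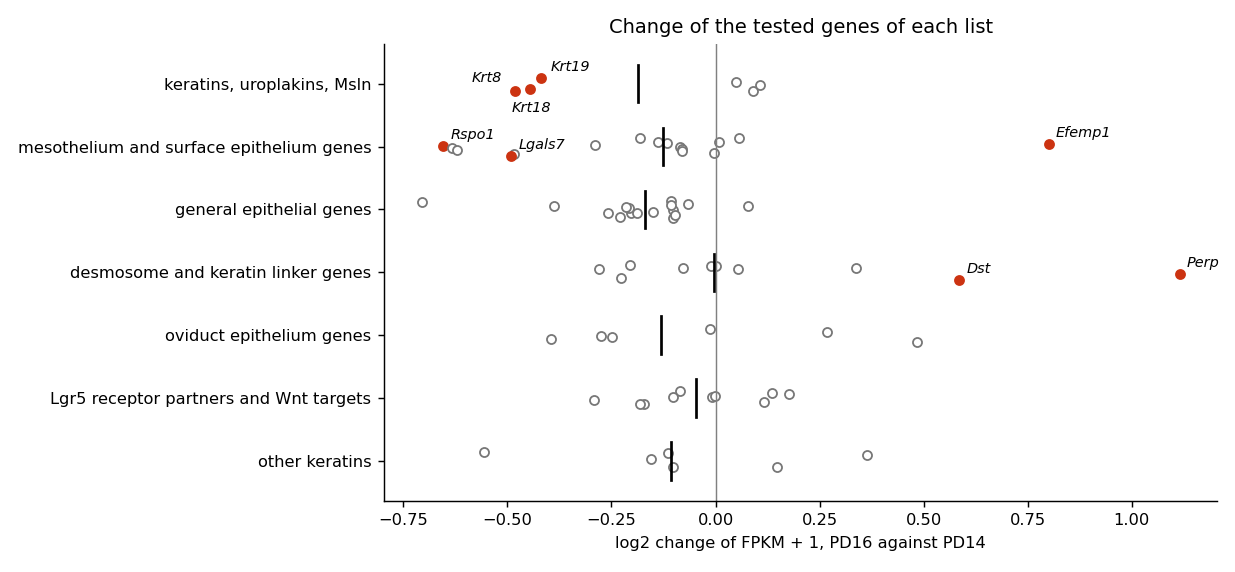
Change of log2(FPKM + 1) in PD16 against PD14 for each tested gene of the 6 tested members (top) and of 6 further lists. Points are genes, spread vertically for visibility, red points have an adjusted p under 0.05 and vertical bars are medians. The keratins Krt8, Krt18 and Krt19 lie at the low end of the top row, and Perp and Efemp1 are the highest points.

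Markers of other ovarian cells were followed as sums, which were not tested. For oocytes, the summed FPKM of 8 markers ran from 1003 to 1228 at PD14, 1318 to 1396 at PD15 and 957 to 1025 at PD16. That of 8 granulosa markers ran from 3090 to 3781, 2954 to 3354 and 3121 to 3677, and that of 7 stromal markers from 604 to 694, 530 to 605 and 610 to 626. The 6 theca and interstitial markers summed to 1546 to 2182 at PD14, 1138 to 1716 at PD15 and 1160 to 1573 at PD16. The libraries of the 3 days overlapped in the granulosa and theca sums. The 5 endothelial markers summed to 56.6 to 59.7, 52.3 to 56.3 and 50.9 to 53.2. Immune markers, 6 in number, summed to 13.5 to 14.6, 17.7 to 20.8 and 17.5 to 24.5, 5 smooth muscle markers to 278 to 316, 266 to 347 and 304 to 405 and 5 fat markers to 6.75 to 7.94, 4.29 to 4.61 and 4.14 to 5.82. The smooth muscle sums overlapped between days, and the fat sum was almost wholly Plin1, at 6.97, 4.23 and 4.65, with Adipoq, Cidec, Fabp4 and Lep at means of 0.277 or less on each day. The most abundant genes of the other lists were Zp3, Inha, Col3a1, Hsd3b1, Cdh5, Lyz2 and Acta2 in the order given. Of the 50 markers 44 were tested, and limma called 4 higher (Amh, Bmp15, Lyz2 and Cnn1) and 1 lower (Plin1) in PD16 against PD14, against 2.36% and 1.89% of all genes tested. In PD15 against PD14 it called Nlrp5 higher and Plin1 lower, and in PD16 against PD15 the oocyte genes Zp2 and Nlrp5 lower, against 0.678% and 0.729% of all genes called in either direction. These called markers are listed after their values were seen. The part of these markers in the levels of the keratins was not tested.

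The genes whose profile over the 9 libraries was most like that of each member were listed as a description, with Pearson's r of log2(FPKM + 1) and with no test, since all values of a library share its depth and its composition. For Krt8 these were Zfp385a (r = 0.993), the AMH receptor gene Amhr2 (0.972) and Wnt6 (0.969). For Krt18 they were Arsg (0.961), the CDK inhibitor gene Cdkn1c (0.961) and Dync1i1 (0.957), and for Krt19 Prickle2 (0.971), Bmp4 (0.958) and Anpep (0.958). None of these lists held another member. For Upk3b the most alike genes with a symbol were Papln (0.895) and Zfp366 (0.880), and for Msln Gm14502 (0.933) and Wdr81 (0.928), each after a gene without a symbol at 0.936 and 0.969. Upk1b was most like Sos2 (0.947), RP23-468J15.5 (0.934) and Capza1 (0.894), Krt7 like Gm12786 (0.928), Mrc2 (0.920) and Ppard (0.914), and Lgr5 like Unc13d (0.932), Lhcgr (0.916) and 4930527E20Rik (0.903).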

How the data were processed

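RNA-Seq of 9 mouse ovary libraries, 3 each at PD14, PD15 and PD16, was analysed. The authors deposited FPKM per gene for every library, which were not rescaled. The submitters' processing notes name HISAT2 2.0.5 and mm10. The counter and its annotation are not given in the sources used here. Exon lengths and positions were from GENCODE M21 (the same build), and the exon length behind a member's FPKM was adjusted so that all 9 values were whole fragments. Depth was 20.4 to 28.7 M fragments, and 93.8% to 94.3% of low values were whole within 0.02 of a fragment.

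Days were compared by limma 3.58.1 (R 4.3.3, intensity trend) on log2(FPKM + 1) in a model of all 9 libraries. It covered the 15495 genes whose mean FPKM exceeded 1 on any day. P-values were two-sided and adjusted by the Benjamini-Hochberg method over all of them, and a call is an adjusted p under 0.05. The fit was tested on simulated data. Sequences were searched with Python 3.11.15, with NumPy 2.4.6, pandas 2.3.3 and SciPy 1.17.1, and plots drawn with Matplotlib 3.10.9. The study describes replicates as biologically independent ovaries, but the labels do not say whether they came from separate animals, so p-values measure the spread between these libraries. Deviations of same-numbered libraries correlated at -0.214 to 0.159, so numbers were not taken as pairs.

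The genes and lists were chosen with earlier results of these data known. Named were all members, the called and the 3 most abundant genes of each context list (1 of these is not reported here), the most abundant gene of each marker list, tested keratins and the 3 most alike genes of each member. Genes named besides these were chosen after their values were seen. Alternatives were other pseudocounts, filters and scalings, limma settings, a replicate block and each library left out.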

Additional observations from a re-analysis of the deposited data

How the results depend on the processing

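Krt8, Krt18 and Krt19 stayed below 0 in PD16 against PD14 under all 18 alternatives run for each, at -0.56 to -0.41, -0.51 to -0.40 and -0.47 to -0.35, and were called by limma with Benjamini-Hochberg adjustment in 14, 17 and 10 of these. The 3 members called in that comparison became 1 without a filter and 0 to 3 with a library left out, the 0 without PD16 replicate 1. In the other comparisons 0 members were called under any alternative. The context lists held 16 surface, 16 general epithelial, 10 linker, 6 oviduct, 10 Lgr5-related and 6 other keratin genes that were tested. Over all genes tested, 0.678% and 0.729% were called in PD15 against PD14 and in PD16 against PD15. In PD16 against PD14, 1.89% were called lower and 2.36% higher. Of the context lists, 2 genes were called in PD15 against PD14, 5 in PD16 against PD14 and 0 in PD16 against PD15. These counts became 1, 1 and 0 without a filter, 1, 3 and 1 with only the 6 libraries compared, 2 in PD16 against PD15 with a mean FPKM above 5, and 1 in PD15 against PD14 without a trend. With a library left out they were 0 to 2, 1 to 6 and 0 to 2. With a replicate block, 3 members and 3 context genes were called in PD16 against PD14. Over all genes, 105, 659 and 113 calls became 24, 227 and 56 with the replicate block, 29, 172 and 24 without a filter and 47, 320 and 93 with only the 6 libraries compared. They were 397 for PD16 against PD14 with TPM and 63 for PD15 against PD14 with a mean FPKM above 5. With a library left out they were 3 to 92, 92 to 660 and 14 to 125. Directions that turned were of small changes that were never called. With a library left out, Krt7 ran from -0.101 to 0.079 in PD15 against PD14, -0.18 to 0.00023 in PD16 against PD14 and -0.14 to 0.0093 in PD16 against PD15, Upk3b from -0.0911 to 0.27, Msln from -0.0463 to 0.367 and Upk1b from -0.0142 to 0.161 in PD16 against PD14. In PD15 against PD14, Upk3b ran from 0.0022 to 0.363 and Msln from 0.124 to 0.537. Krt7 in PD15 against PD14 was -0.00054 with TPM. The causes were not tested. With 3 libraries a day an exact permutation test of a single gene cannot go below 0.10. Upk3b, Upk1b and Msln had standard errors of 0.18, 0.16 and 0.19 in log2, against 0.064 to 0.088 for the called keratins, so smaller changes were detectable in the latter.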
